A study of Mus musculus with 3 samples.

Results

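Cd209a conventional dendritic cells of the mouse aorta were taken as 146 of 20903 kept cell barcodes from 3 single-cell RNA-seq libraries of CD45+ aortic cells. A kept barcode had at least 200 detected genes and at most 10% mitochondrial UMIs (unique molecular identifiers, each standing for 1 captured transcript molecule). A kept barcode was a member when it held at least 2 UMIs of Cd209a, which encodes a DC-SIGN-related C-type lectin, and at least 5 UMIs of H2-Aa, an MHC class II chain. It also had to hold no UMI of C1qa (macrophages), Xcr1 (the other conventional dendritic cell lineage), Ccr7 (mature, migrating dendritic cells), Cd79a (B cells) or Cd3e (T cells). The control library gave 69 members, the HHcy-labelled library 35 and the WD library 42. The members were chosen by the measured UMIs of these 7 genes, so values of these genes, and differences from the cells the rule left out, are descriptions only.

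The labels give all 3 libraries as ApoE-/- (C57BL/6J) mice; such mice lack apolipoprotein E and accumulate plasma cholesterol, a standard background for atherosclerosis. The control mice had no stated treatment, the HHcy mice (hyperhomocysteinemia) received homocysteine at 1.8 g/L in their drinking water for 4 weeks, and the WD mice ate a western diet for 4 weeks. Whole aortas were digested with enzymes and live, nucleated CD45+ cells were sorted, so members could come from the vessel wall or the adventitia. The labels give neither the number of mice pooled nor their age or sex. With 1 library per group there is no replicate: no difference between libraries was tested, no p-value is given, and every interval is a 95% interval that covers counting error only.

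Conventional dendritic cells arise from Flt3-dependent precursors, take up antigen in tissue, load peptides on MHC class II and present them to T cells. The Xcr1+ lineage specialises in cross-presentation on MHC class I, while the second lineage depends on Irf4 and Klf4 and primes CD4+ T cells. In the mouse aorta, cells of the second lineage carry Cd209a together with lectins such as Clec10a and Mgl2. Many of their surface genes are shared with macrophages and monocyte-derived cells, which makes the border between them hard to draw from single genes.

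The libraries summed to 66.8M, 105.2M and 93.2M UMIs (M, 1e6) in the control, HHcy and WD files. Members held a median of 14540 UMIs in control, 13472 in HHcy and 14293 in WD, with 3298, 3183 and 3224.5 detected genes. Between 20 and 24 barcodes were shared by any pair of libraries, and no shared barcode was a member in both. Apoe, the deleted gene, went against 1 label: it stood at 16.3 CPM (UMIs of the gene per 1e6 UMIs) over all barcodes of the control library, 374 in HHcy and 19.3 in WD, and in macrophages at 28.7, 1321 and 27.4 CPM. The sequence counted for Apoe need not lie in the deleted part, but the labels give all 3 libraries the same genotype, so the second is called the HHcy-labelled library throughout. In members, Apoe summed to 14, 54 and 2 UMIs, and 1 barcode held 36 of the 54.

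Members also carried genes of conventional dendritic cells that lie outside the rule. These markers were listed with earlier results of these data known, so their levels describe the members and are no test of the name. A list of 7 core genes of conventional dendritic cells summed to 1108, 1074 and 894 CPM in members. It reached 1017, 1102 and 823 CPM in Xcr1+ dendritic cells and 1108, 1100 and 689 CPM in mature dendritic cells, so it is not particular to members. Klrd1 (CD94, a lectin-like receptor best known from natural killer cells) stood at 269 CPM in control members, 407 in HHcy-labelled members and 387 in WD members. The same gene reached 22.4, 23.7 and 28.5 CPM in macrophages, here kept barcodes with at least 1 Csf1r and 2 C1qa UMIs and no Cd79a or Cd3e. A Klrd1 UMI was found in 65.2%, 74.3% and 83.3% of members and in 1.40%, 1.12% and 2.49% of B cells, which were shallower; with every barcode thinned to 2000 UMIs the shares were 33.8%, 44.1% and 47.6% against 0.169%, 0.282% and 0.755%. T cells, among which killer lymphocytes carry the gene, held 110, 127 and 122 CPM. Flt3, the receptor for the dendritic cell growth factor, was at 99.1, 109 and 103 CPM in members. Ffar2, a receptor for short-chain fatty acids, was at 73.6, 28.8 and 62.2 CPM, a lower level in the HHcy-labelled library than in the others. Flt3 lay within 10 CPM across the libraries, and Klrd1 was lowest in control.

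Of the 15 markers on the list for these cells other than Cd209a, which include Klrd1, Flt3 and Ffar2, a member carried a median of 9 in each library. The 15 summed to 4067, 4183 and 4165 CPM in members and 1499, 1737 and 1557 CPM in macrophages. Neutrophils held 1634, 5485 and 3005 CPM, so the sum is not particular to members. At least 7 of the 15 were found in 57 of 69 control members, 30 of 35 labelled HHcy and 40 of 42 from WD, and no member had fewer than 3. None of Klrd1, Flt3 and Ffar2 was detected in 13, 4 and 5 members. Klrd1 did not come with a natural killer cell profile. The defining genes Ncr1, Klrb1c, Prf1 and Eomes were at 0 UMIs in the members of all 3 libraries, and the summed list of 8 such genes stood at 10.7, 14.4 and 10.9 CPM. The macrophage list, C1qa left out, summed to 755, 796 and 840 CPM in members against 10341, 11987 and 10333 CPM in macrophages. Members with at least 2 UMIs of another lineage's markers numbered 14, 8 and 13.

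Cd209a itself was spread widely among members. It had a median of 7 UMIs per member in control, 7 in the HHcy-labelled library and 10 in WD, with maxima of 56, 37 and 67. H2-Aa had medians of 115, 90 and 134 UMIs, far above its threshold. At the threshold, 12, 8 and 5 members held exactly 2 Cd209a UMIs. Just outside it, 12, 18 and 7 barcodes met every other condition with 1 Cd209a UMI, and Klrd1 was detected in 41.7%, 44.4% and 57.1% of them. With no Cd209a UMI, 206, 120 and 110 barcodes met the other conditions, and Klrd1 was detected in 8.74%, 18.3% and 11.8%. Barcodes failing only by 1 UMI of C1qa numbered 23, 16 and 16 and held Klrd1 at 286, 299 and 177 CPM. Those failing by 10 or more C1qa UMIs numbered 19, 16 and 51, with Klrd1 at 229, 5.78 and 67.8 CPM. Barcodes on either side of the Cd209a and C1qa limits thus overlapped in Klrd1.

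Members made up 1.14% of kept control barcodes (69 of 6038; exact binomial interval 0.890% to 1.44%). The share was 0.429% in the HHcy-labelled library (35 of 8155; 0.299% to 0.596%) and 0.626% in WD (42 of 6710; 0.451% to 0.845%). On the log2 scale this was -1.41 against control (interval -1.998 to -0.828) for the HHcy-labelled library and -0.87 (-1.42 to -0.32) for WD. The 2 intervals against control lay below 0, but both differences depended on what else was counted. Among kept barcodes without Cd79a, which leaves out B cells, the shares were 2.45%, 1.54% and 1.06%, or -0.68 and -1.22 on the log2 scale. Of members and macrophages together, members were 6.60%, 4.79% and 2.04%, or -0.46 (-1.03 to 0.11) and -1.69 (-2.24 to -1.15), so the interval of the HHcy-labelled library then included 0; macrophages made up 16.2%, 8.52% and 30.01% of kept barcodes. Fewer members and more of the other sorted cells cannot be told apart in these shares, nor can fewer cells and less recovery from the digest. The Xcr1+ dendritic cells, counted by Xcr1 and Clec9a in the same libraries, were also fewer in the treated libraries, at 66, 26 and 19 barcodes. Mature dendritic cells, counted by Ccr7 and Fscn1, numbered 38, 13 and 39 barcodes. Their log2 shares were -1.98 (-2.89 to -1.07) and -0.11 (-0.76 to 0.53), so the WD interval included 0. Both counts also required no UMI of C1qa, Cd79a or Cd3e, and how far they depended on the C1qa condition was not tested.

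The condition that removed the most candidates was the absence of C1qa, a complement subunit made by resident macrophages. Before any exclusion, 259 control barcodes, 282 labelled HHcy and 302 from WD held enough Cd209a and H2-Aa, which was 4.29%, 3.46% and 4.501% of kept barcodes. A C1qa UMI was present in 49.8%, 74.5% and 77.5% of those candidates. It was also present in 24.4%, 28.8% and 41.5% of B cell barcodes, which do not express the gene, at a median of 7680, 6550 and 6780 UMIs against 16584, 20311.5 and 21525.5 for candidates. Exactly 1 C1qa UMI was held by 21.6%, 15.6% and 10.9% of candidates and by 19.6%, 22.1% and 27.8% of B cell barcodes. At least 10 UMIs were seen in 18.5%, 48.2% and 52.0% of candidates and in 0.333%, 0.251% and 0.666% of B cell barcodes. These B cell barcodes were chosen to hold no UMI of Cd3e or of Csf1r, a macrophage gene, and candidates were not. That condition can lower their C1qa counts, so no limit of background is drawn from them. Without the C1qa exclusion the WD share was -0.07 against control (interval -0.42 to 0.28), with 123 control and 130 WD members, so the lower WD share depended on that exclusion. With up to 1 C1qa UMI allowed it was -0.82 (-1.29 to -0.35). The HHcy-labelled library remained lower at -1.23 (-1.65 to -0.81).

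**Figure D1:**
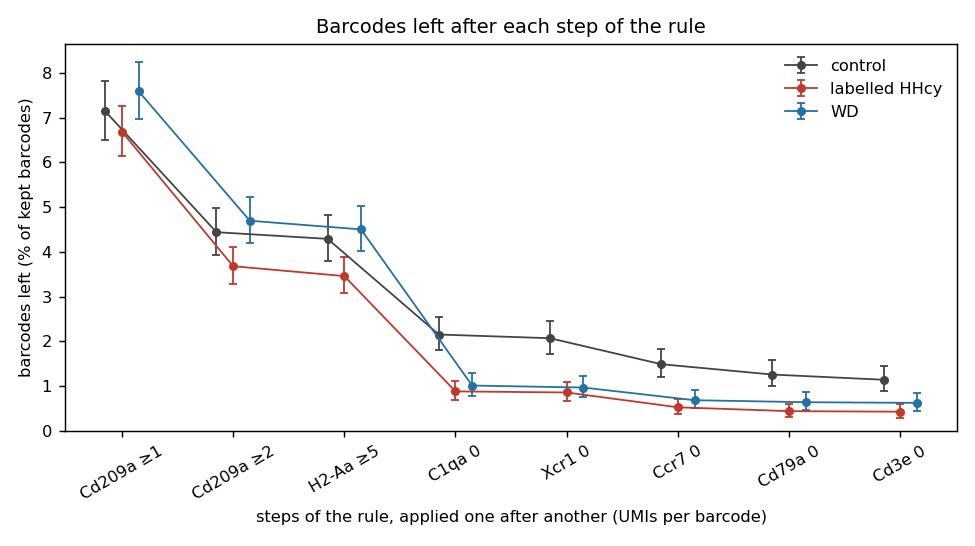
Share of kept barcodes (%, vertical axis) left after each successive condition of the rule (horizontal axis) in the 3 libraries, with exact binomial 95% intervals. The lines start between 6.68% and 7.59%, separate at the C1qa step and end at 1.14% in control, 0.429% in the HHcy-labelled library and 0.626% in WD.

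A group of 8 barcodes stood apart from the rest of the members by genes of other cells, and none came from the control library. These were the members with at least 10 UMIs of Siglech, S100a8 or Col1a1. Below that limit, 2 control members held 4 and 3 Siglech UMIs and 1 WD member held 5. In the HHcy-labelled library, 3 members held 13, 10 and 17 UMIs of Siglech, a lectin of plasmacytoid dendritic cells, and 1 WD member held 54. These 4 also held 65, 52, 65 and 48 UMIs of Bst2 and 27, 38, 32 and 33 UMIs of Tcf4, the factor that specifies plasmacytoid dendritic cells, so their leading genes went against the name given to the set. Another 2 members labelled HHcy held 53 and 1579 UMIs of the neutrophil gene S100a8, and 1 WD member held 295. A last WD member held 31 UMIs of the fibroblast collagen gene Col1a1. No doublet caller was run, and whether these were pairs of cells was not tested. The 3 Siglech-bearing members held 57.8% of the Bst2, 76.5% of the Ly6c2 and 92.3% of the Irf8 UMIs of all members labelled HHcy. Results between libraries are therefore given with all members and without these 8, which leaves 69, 30 and 39.

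Against macrophages of the same libraries, members were marked by genes of the MHC class II pathway and by receptors shared with lymphocytes. This contrast was used by the rule, so its values are a description. A gene was counted when it differed at least 2-fold in each of the 3 libraries with intervals that excluded equality. It also had to reach 50 CPM on the higher side in each library. That held for 96 of 2345 genes (4.09%) higher and 251 of 2689 (9.33%) lower in members. The median of all genes differed between the sets by 0.06, 0.15 and 0.10 on the log2 scale. Ddr1, a collagen receptor, had log2 ratios over macrophages of 4.14 in control, 4.95 in the HHcy-labelled library and 3.77 in WD. For Klrd1 the ratios were 3.59, 4.10 and 3.76, and for Klrk1, another receptor shared with killer lymphocytes, 2.24, 2.65 and 2.87. Cd7, a surface protein of T cells and natural killer cells, was at 127, 181 and 132 CPM in members and 12.8, 18.5 and 9.08 CPM in macrophages. It was detected in 31.9%, 48.6% and 52.4% of members, so a large part of them lacked it at this depth. Itgb7, an integrin chain used in homing to gut and other tissues, had ratios of 2.09, 2.06 and 2.30, and Dpp4, a surface peptidase, 2.45, 3.30 and 2.62.

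Most MHC class II pathway genes were higher in members than in macrophages, and MHC class I genes were not. Over 11699 genes with at least 10 UMIs, 1.65% were 2-fold higher and 4.62% lower in all 3 libraries, and nothing is read from these shares. Of 14 measured MHC class II pathway genes outside the rule, 10, 8 and 10 were at least 2-fold higher in members of the control, HHcy-labelled and WD libraries, with medians of 1.39, 1.28 and 1.31; the medians of all measured genes were -0.04, 0.09 and 0.13, and 4.27%, 5.06% and 3.93% of them were at least 2-fold higher. Of 13 MHC class I genes, 0, 1 and 0 were at least 2-fold higher, with medians of 0.04, 0.25 and -0.0016. H2-Oa, which modulates peptide loading, was at 161, 109 and 171 CPM against 13.3, 11.5 and 12.4 in macrophages. H2-DMb2, a chain of the peptide-loading chaperone, was at 214, 152 and 154 CPM against 18.9, 20.9 and 22.8. Ciita, the transactivator of the pathway, was at 264, 232 and 208 CPM against 59.8, 63.3 and 62.3. A pair of lysosomal proteases had intervals below 0 in every library: Lgmn, at 151, 208 and 154 CPM in members and 655, 642 and 739 in macrophages, and Ctss, with ratios of -0.41, -0.23 and -0.51. The high MHC class II level was shared with Xcr1+ dendritic cells. Without H2-Aa the list summed to 43347, 37865 and 40155 CPM in members and to 37096, 37353 and 37400 CPM in Xcr1+ dendritic cells. B cells also expressed H2-DMb2, at 334, 458 and 395 CPM, so the gene does not set members apart from them. Napsa, an aspartic protease, showed the same: members held 698, 790 and 715 CPM, B cells 457, 428 and 481, and macrophages 149, 164 and 166.

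**Figure D2:**
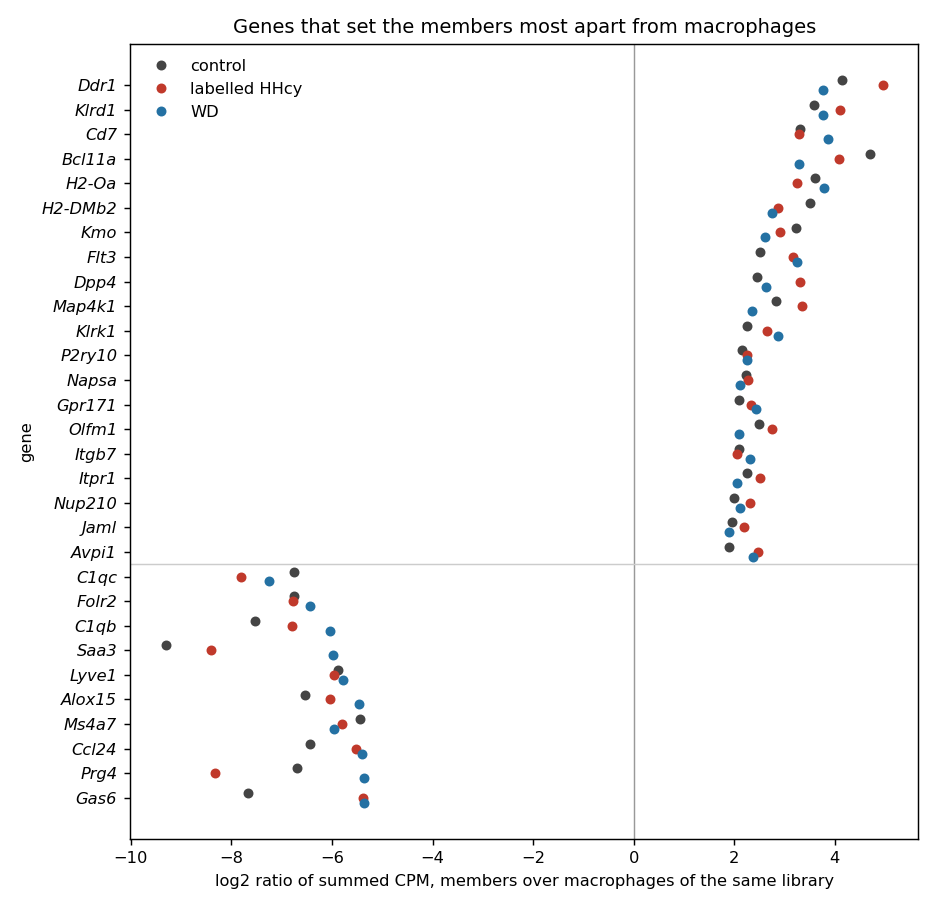
Log2 ratio of summed CPM, members over macrophages (horizontal axis), for the 20 genes highest and the 10 lowest by the naming rule, with 1 point per library. The points of the 3 libraries lie close together for genes such as Klrd1, from 3.59 to 4.10, while C1qb lies between -7.54 and -6.04.

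Transcription factors of the second conventional dendritic cell lineage were present at low to moderate levels. Zbtb46, a factor of conventional dendritic cells that macrophages largely lack, stood at 21.3, 28.8 and 21.8 CPM in members and 7.59, 5.20 and 4.83 in macrophages. Irf4 was at 64.0, 35.0 and 52.9 CPM. Bcl11a, a factor needed early in dendritic cell and lymphoid development, was at 151, 204 and 101 CPM against 5.84, 11.99 and 10.4 in macrophages. Klf4, required for a branch of the second lineage, was at 703 CPM in control members, 370 in members labelled HHcy and 348 in WD. Control was the highest of the 3, with log2 ratios of -0.92 (-1.17 to -0.68) and -1.01 (-1.24 to -0.79). Klf4 is also induced by tissue digestion, and in B cells of the same libraries it stood at 419, 215 and 363 CPM; the part of digestion in its level was not tested. Irf8, which specifies the Xcr1+ lineage and plasmacytoid cells, was at 43.7, 294 and 132 CPM in all members and at 43.7, 24.2 and 64.2 CPM without the 8 that stood apart.

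Secreted factors and lipid genes ran the other way. Of 17 chemokine genes, 14, 15 and 14 were at least 2-fold lower in members than in macrophages, with medians of -2.19, -2.11 and -2.07; over all measured genes 10.2%, 7.78% and 8.47% were that much lower. Ccl17, which attracts T cells through Ccr4, was an exception. It was at 165 CPM in control members, 10.3 in members labelled HHcy and 151 in WD against 9.05, 3.46 and 18.8 in macrophages. Only 11.6%, 5.71% and 9.52% of members held a Ccl17 UMI, and 1 member in each library held 69.0%, 80.0% and 56.7% of these UMIs. Of 19 genes of lipid handling, 12, 13 and 15 were at least 2-fold lower in members than in macrophages. Il1b, the inflammatory cytokine, was not among the lower genes: members held 1362, 1806 and 1888 CPM and macrophages 1022, 1332 and 1067. Ccr2, the receptor for Ccl2 on monocyte-derived and some dendritic cells, was at 442, 407 and 375 CPM in members and 194, 169 and 214 in macrophages.

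Within the members, few barcodes of any library held both Mgl2 and Ifitm1, and many held neither. Mgl2 (CD301b) is a galactose-binding lectin of a dermal and tissue dendritic cell subset, and Ifitm1 is an interferon-inducible membrane protein. At a limit of 2 UMIs, 25 of 69 control members held Mgl2 without Ifitm1 and 20 held Ifitm1 without Mgl2, while 5 held both and 19 neither. In the HHcy-labelled library these counts were 7, 7, 2 and 14 of 30 members, and in WD 10, 15, 2 and 12 of 39. Members with Mgl2 only and with Ifitm1 only are compared below as 2 sides. These sides were noticed in these data, so the genes that follow them are described and not tested. Whether fewer members held both genes than unrelated genes would give was not tested. With 9 of 30 members holding each gene in the HHcy-labelled library, 2 with both need not be fewer. Of 1981 genes with enough UMIs, 24 (1.21%) were at least 2-fold higher with Mgl2 in every library and 24 (1.21%) with Ifitm1.

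**Figure D3:**
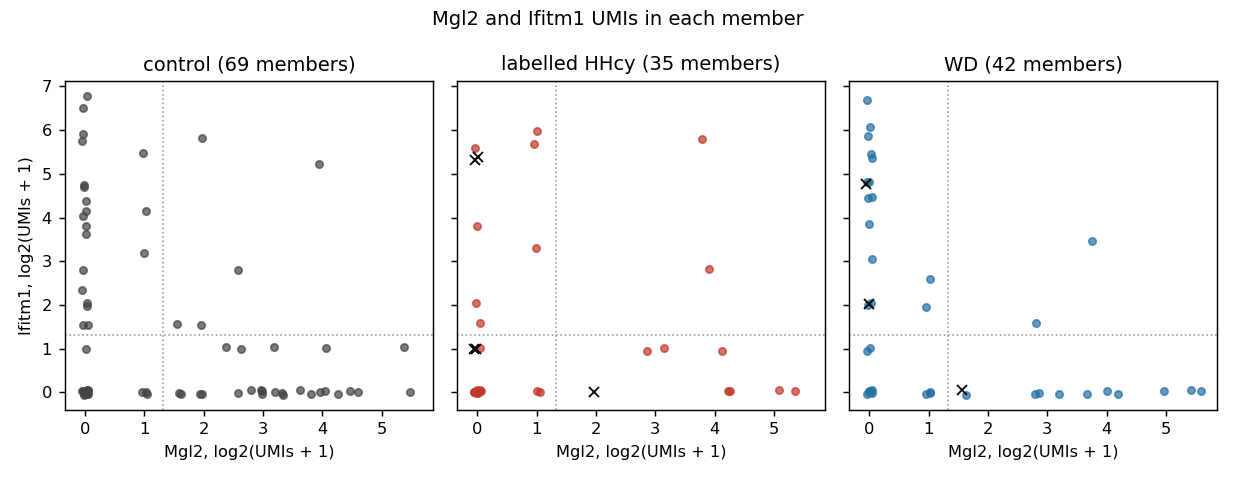
Mgl2 (horizontal axis) and Ifitm1 (vertical axis) in each member, as log2(UMIs + 1), with 1 panel per library and dotted lines at the limit between 1 and 2 UMIs. Most members lie along one axis or near the origin; 5, 2 and 2 of the members outside the 8 that stood apart pass both limits.

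The genes higher with Mgl2 included receptors and lectins, of which some examples follow. Mrc1, the mannose receptor, was at 282 CPM with Mgl2 and 48.4 with Ifitm1 in control, 366 and 70.9 in the HHcy-labelled library, and 152 and 26.0 in WD. Il1rl1, the interleukin-33 receptor, was at 108 against 13.8 CPM in control, 248 against 10.1 in the HHcy-labelled library and 25.3 against 4.33 in WD. Clec4b1, a lectin of dendritic cells, was at 252 against 76.0, 626 against 20.3 and 450 against 30.3 CPM. Each of these 3 genes was higher with Mgl2 in every library. Cd209a, which chose the members, was also higher there, at 1205 against 746, 1311 against 517 and 1659 against 645 CPM. Klf2 and the inhibitor of NF-kB signalling Tnip3 followed the same side, with pooled log2 ratios of 1.98 and 2.01.

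Cd7 and Runx3 were among the genes higher with Ifitm1. Cd7 was at 252 CPM with Ifitm1 and 16.4 with Mgl2 in control, 243 and 0 in the HHcy-labelled library, and 186 and 57.0 in WD. Runx3, a factor of lymphocytes and some dendritic cells, was at 280 against 72.1, 314 against 94.5 and 385 against 146 CPM. Ptgs2, the inducible cyclooxygenase, was at 1026 against 242, 699 against 11.8 and 325 against 95.004 CPM. Il21r, the interleukin-21 receptor, and the interferon-induced gene Oas1a followed, with pooled log2 ratios of -2.24 and -2.41 (Mgl2 over Ifitm1). Klrd1 did not keep 1 direction: 377 CPM with Ifitm1 against 138 with Mgl2 in control, 142 against 201 in the HHcy-labelled library and 498 against 494 in WD. Klrk1 was higher with Ifitm1 in each library, though nearly level in control, at log2 ratios of -0.30, -1.78 and -0.75 (Mgl2 over Ifitm1). Clec10a and Lyz2 also changed direction between libraries. The counting intervals of the shares overlapped between libraries: Mgl2 without Ifitm1 was 36.2% (24.99% to 48.7%) in control, 23.3% (9.93% to 42.3%) in the HHcy-labelled library and 25.6% (13.04% to 42.1%) in WD.

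Between the HHcy-labelled library and control, 66 of 3114 genes (2.12%) were counted higher and 51 (1.64%) lower in members, at a 2-fold difference with an interval excluding 0. A single member held over 25% of the UMIs of 21 and 9 of these genes, which are not named. Without the 8 members that stood apart, the higher count was 42. Fam241a was at 15.99 CPM in control members, 76.1 in members labelled HHcy and 31.1 in WD, and its log2 ratio was 2.25 (1.35 to 3.22) with all members and 1.95 (0.95 to 2.997) without the 8. Net1, an exchange factor for RhoA, was at 26.7, 76.1 and 29.5 CPM, with log2 ratios of 1.51 and 1.22. Bcap29 was at 21.3, 57.6 and 20.2 CPM. The members labelled HHcy were the highest of the 3 for these 3 genes, and the 8 members changed their ratios little. The C1qa condition mattered more. Without that exclusion 6 of the 10 named genes higher in this library stayed at least 2-fold higher with an interval above 0. Fam241a then stood at 1.23 (0.61 to 1.86). Bcap29 did not pass there, nor with up to 1 C1qa UMI allowed.

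Other higher genes rested on the members that stood apart. Bst2, an interferon-induced membrane protein and plasmacytoid marker, had a log2 ratio of 1.43 with all members and 0.50 without the 8. Ly6c2, a marker of classical monocytes, went from 1.43 to -0.74, which turned its direction. Lair1, an inhibitory collagen receptor, went from 1.32 to 0.04, and Hmox1, the heme-degrading enzyme, from 1.40 to 0.90 (-0.21 to 1.97). Eepd1 and Hist3h2a were less affected, at 1.33 and 1.10 and at 1.33 and 1.26. The list of plasmacytoid markers had a median of 3.02 over 8 measured genes with all members and 0.19 over 3 without the 8, and that of neutrophil markers went from 6.16 to 1.53.

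The genes lower in members labelled HHcy kept their direction without the 8. Without the C1qa exclusion, 6 of the 10 named (Ndrg1, Clec4n, Creb5, Ccl2, Got1 and Nr4a3) stayed at least 2-fold lower with an interval below 0. Clec4n (Dectin-2), a lectin that recognises fungal mannans, was at 138 CPM in control members, 24.7 in members labelled HHcy and 48.2 in WD; its log2 ratio was -2.48 (-3.47 to -1.62), -2.35 without the 8 and -2.46 without the richest member of each library. Control was the highest, and its Clec4n UMIs came from 30.4% of members. Ndrg1, a stress-responsive gene, was at 70.4, 12.3 and 52.9 CPM, with ratios of -2.51 and -3.12. Nfix was at 59.7, 14.4 and 40.4 CPM (-2.05 and -1.66), and Got1, the cytosolic aspartate aminotransferase, at 117, 43.2 and 112 CPM (-1.44 and -1.27). For Ndrg1, Nfix and Got1 the WD members lay nearer to control. Ccl2, the monocyte attractant, was at 191, 61.7 and 85.5 CPM, with ratios of -1.63 (-2.24 to -1.07) and -1.34. Macrophages of the same libraries held Ccl2 at 873, 817 and 1133 CPM. Nr4a3, an immediate early nuclear receptor, was at 301, 115 and 165 CPM (-1.38 and -1.25) and Egr3, another immediate early factor, at 57.6, 20.6 and 26.4 CPM. Of 19 genes induced by tissue dissociation, 10 had intervals below 0 with all members and 8 without the 8, at medians of -0.23 and -0.07, against 4.82% and 4.42% of all genes with such an interval; their part in the lower immediate early genes was not tested. Creb5 was at 52.2, 14.4 and 46.7 CPM, Adssl1 at 65.0, 20.6 and 48.2 and Gfra2 at 57.6, 20.6 and 9.33; with each member thinned to 2000 UMIs the Gfra2 ratio turned from -1.48 to 0.26.

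Between WD and control, 41 of 3058 genes (1.34%) were counted higher and 54 (1.77%) lower in members, and 1 member held over 25% of the UMIs of 20 and 11 of them. The higher genes included several that interferon induces. Ifit1 was at 33.0 CPM in control members, 24.7 in members labelled HHcy and 94.9 in WD, a log2 ratio of 1.52 (0.88 to 2.19). Ifi204, a cytosolic DNA sensor, was at 57.6, 121 and 149 CPM, with ratios of 1.38 (0.88 to 1.88) for WD and 1.08 (0.52 to 1.64) for the HHcy-labelled library. Ifi47, an interferon-induced GTPase, was at 27.7, 39.1 and 66.9 CPM, a WD ratio of 1.27 (0.54 to 2.03). WD members were the highest of the 3 for each of these genes. Ctla2a, a cathepsin inhibitor, was at 49.0, 72.0 and 152 CPM (1.64, 1.12 to 2.17), and macrophages of the 3 libraries held it at 26.4, 39.0 and 69.4 CPM in the same order. C1qb was at 14.9, 30.9 and 51.3 CPM (1.78, 0.84 to 2.80); B cells held 28.6, 36.6 and 57.6 CPM, so the WD level in members did not exceed that of cells that do not express the gene. Cd302 was at 19.2, 35.0 and 52.9 CPM, Daxx at 21.3, 39.1 and 51.3, Bex3 at 30.9, 30.9 and 74.7 and Dut, an enzyme of nucleotide metabolism, at 32.0, 28.8 and 79.3. Without the members that held markers of other lineages, the Dut ratio went from 1.31 to -0.022. Lair1 had a ratio of 1.43 with all members and 0.96 (0.19 to 1.74) without the 8.

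Genes lower in WD members included Fcrls and Gfra2, which lay on the Mgl2 side in every library. In WD that side rests on few UMIs: 3 of its members held each gene, and 0 members of the Ifitm1 side did. Fcrls, an Fc receptor-like gene of macrophages, was at 82.1, 74.0 and 9.33 CPM, a log2 ratio of -3.14 (-4.63 to -1.95). Its UMIs came from 14 control, 5 HHcy-labelled and 5 WD members. Among members with Mgl2 and no Ifitm1 it stood at 236, 390 and 19.0 CPM, so WD was also the lowest within that side, and without the richest member of each library its ratio was -3.36 (-5.28 to -1.93). Gfra2, a neurotrophic factor receptor, was at 57.6, 20.6 and 9.33 CPM (-2.62, -4.13 to -1.41) and stood at 102, 106 and 31.7 CPM within the Mgl2 side. Fn1, fibronectin, was at 211, 255 and 63.8 CPM (-1.73, -2.25 to -1.24; -2.68 without the richest members), and within the Mgl2 side at 436, 803 and 57.0; in WD the Ifitm1 side held more, 130 CPM. Macrophages also held the least Fn1 in WD, at 1282, 1438 and 730 CPM. Fgfr1, a fibroblast growth factor receptor, was at 155, 214 and 49.8 CPM (-1.64, -2.24 to -1.07), with macrophages at 144, 175 and 92.8. Cd24a, a sialoglycoprotein of immature and dendritic cells, was at 145, 165 and 38.9 CPM (-1.90, -2.58 to -1.28), with macrophages at 65.8, 86.1 and 61.6. Rgcc, a cell cycle regulator, was at 109, 78.2 and 18.7 CPM (-2.34, -3.46 to -1.39 without the richest members), and Hivep2 at 81.0, 61.7 and 26.4. Mt2, a metallothionein, was low in both treated libraries, at 122, 32.9 and 34.2 CPM. Il7r was at 53.3, 53.5 and 18.7 CPM (-1.51, -2.56 to -0.58) and -1.85 without the 8. Clec4n had a WD ratio of -1.51 (-2.13 to -0.94). These lower WD levels depended on the rule. Without the C1qa exclusion, 1 of the 10 named genes lower in WD, Cd24a (-1.09), stayed at least 2-fold lower with an interval below 0; Fcrls stood at -0.52, Fgfr1 at -0.75, Hivep2 at -0.62, Fn1 at -0.30 and Mt2 at -0.88. With up to 1 C1qa UMI allowed, 4 of the 10 did (Fcrls, Cd24a, Fn1 and Fgfr1), while Mt2 was at -0.28 (-0.66 to 0.09), Rgcc at -0.46, Gfra2 at -0.98 and Il7r at -0.05, and Clec4n turned to 0.32. With 1 Cd209a UMI sufficient, 6 did, and Fn1 stood at -0.60. Il7r was level with control (0.0019) once Ccr7 was allowed. Of the 10 named genes higher in WD, 7 passed without the C1qa exclusion and 6 with up to 1 C1qa UMI.

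**Figure D4:**
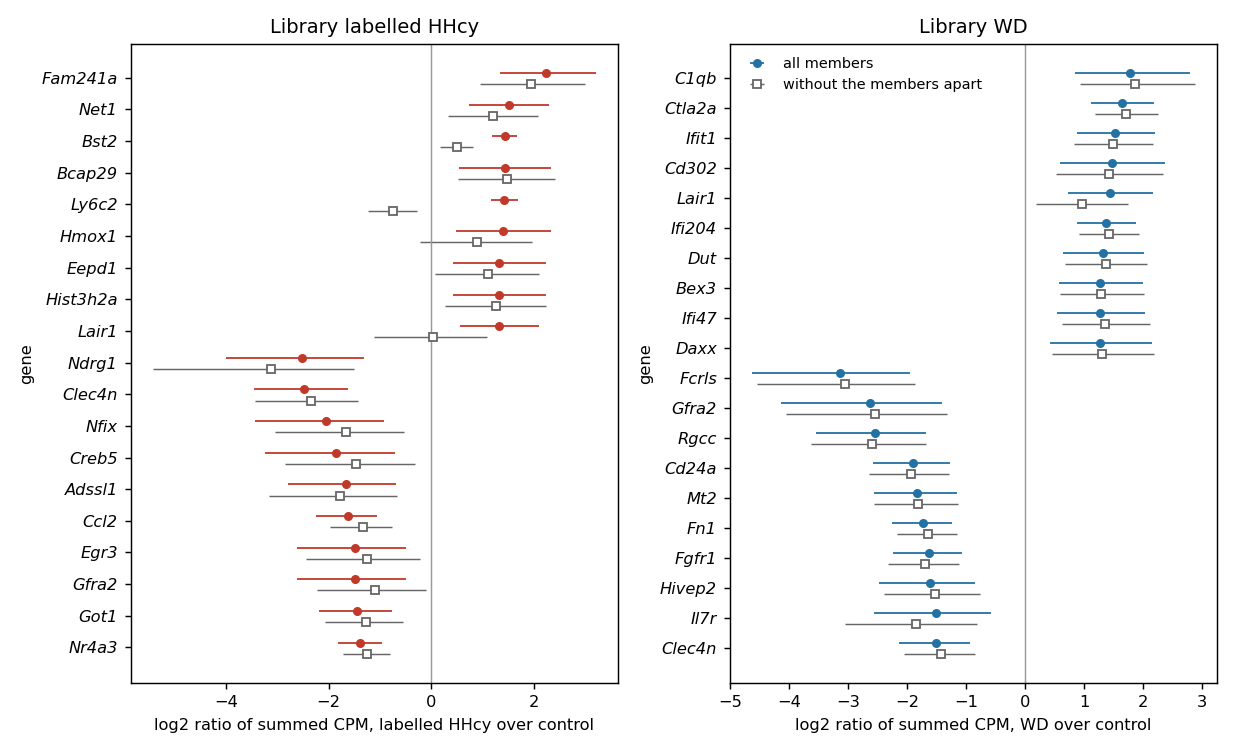
Log2 ratio of summed CPM over control (horizontal axis) for the named genes of each comparison, with 95% counting intervals; filled circles are all members and open squares leave out the 8 that stood apart. Ly6c2 and Lair1 move to -0.74 and 0.04 in the HHcy-labelled library, while the 10 WD genes below 0 stay below it.

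Genes that interferons induce were higher in WD members than in control members over most of the 21 measured members of their list. Of the 21, 20 had a ratio above 0, 15 had an interval above 0, 4 were at least 2-fold higher (Ifit1, Ifit2, Ifit3 and Isg20) and none was 2-fold lower, with a median of 0.78. Over all 8409 genes with at least 10 UMIs the median was -0.04, 47.7% were above 0, 6.54% had an interval above 0, and 2.3% were 2-fold higher. Part of this rested on 1 WD member, which held 447 of the 2978 UMIs of the list in that library. Without the member richest in these genes in each library, the WD median was 0.62, with 10 of 20 intervals above 0 and 2 genes at least 2-fold higher. Without the 8 members that stood apart the median was 0.73, with 15 intervals above 0 and 5 genes at least 2-fold higher. In the HHcy-labelled library the median was 0.15 with all members and 0.06 without the 8, and it lay below 0 with a mean over cells (-0.18) and with members thinned to 2000 UMIs (-0.42). Ifit3, an antiviral tetratricopeptide protein, was at 21.3 CPM in control members, 10.3 in members labelled HHcy and 114 in WD, a WD ratio of 2.41 (1.68 to 3.21). A single WD member held 54.8% of those UMIs, and without the richest member of each library the ratio was 1.57 (0.67 to 2.53). Ifit2 was at 23.5, 30.9 and 80.9 CPM (1.79, 1.04 to 2.58) and Isg20, an exonuclease of viral RNA, at 18.1, 28.8 and 56.0 (1.63, 0.76 to 2.55). For each, 1 WD member held over 50% of the UMIs: without the richest member of each library Ifit2 stood at 0.79 (-0.19 to 1.78) and Isg20 at 0.73 (-0.36 to 1.84), while Ifit1 was at 1.53 (0.78 to 2.32). With up to 1 C1qa UMI allowed, Ifit1 fell short of 2-fold, at 0.52 (0.06 to 0.97), and Ifi204 at 0.86 (0.44 to 1.28), while the list median was 0.57 with 15 intervals above 0. Irf7, the factor that amplifies the type I interferon response, was at 91.7, 105 and 176 CPM (0.94, 0.52 to 1.36), and Isg15, a ubiquitin-like modifier, at 125, 109 and 191 (0.62, 0.24 to 0.99). The WD library was the highest for these genes, and control and the HHcy-labelled library overlapped within their intervals.

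The higher WD level of the interferon list was not limited to members. Its summed level was 2757, 2637 and 4632 CPM in the members of the 3 libraries, and the median per member was 26, 21 and 44.5 UMIs. In macrophages the WD median was 0.63, with 21 of 21 genes above 0, and in B cells it was 0.60, with 20 of 21. In Xcr1+ dendritic cells it was 1.01 over 19 WD barcodes, in neutrophils 0.55, in Ly6c2 monocytes 0.30, in T cells 0.30 and in mature dendritic cells -0.03. The HHcy-labelled library also lay above control in some cells, with medians of 0.57 in neutrophils, 0.30 in macrophages, 0.28 in B cells and 0.21 in Xcr1+ dendritic cells. Its medians lay below 0 in Ly6c2 monocytes (-0.13), T cells (-0.55) and mature dendritic cells (-0.55). Among members outside the 8, those with Ifitm1 had a WD median of 0.93 and those with Mgl2 0.38. The difference between those sets was not tested. Of 8 measured classical monocyte markers, 6 also lay above control in WD members. The whole list of 9 summed to 2063, 3460 and 2966 CPM in the members of the 3 libraries, with 1 gene, Vcan, at 0 in the HHcy-labelled library. In WD the median was 0.84, with 5 of 8 intervals above 0 and 2 below, and 0.80 without the 8 members that stood apart; Chil3, Hp and F13a1 were at least 2-fold higher and Fn1 lower. Without the members that held markers of another lineage that median was -0.59. Of 7 markers of non-classical monocytes, 0 lay above control in WD, with a median of -0.68. The part of monocyte markers in the interferon list was not tested.

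**Figure D5:**
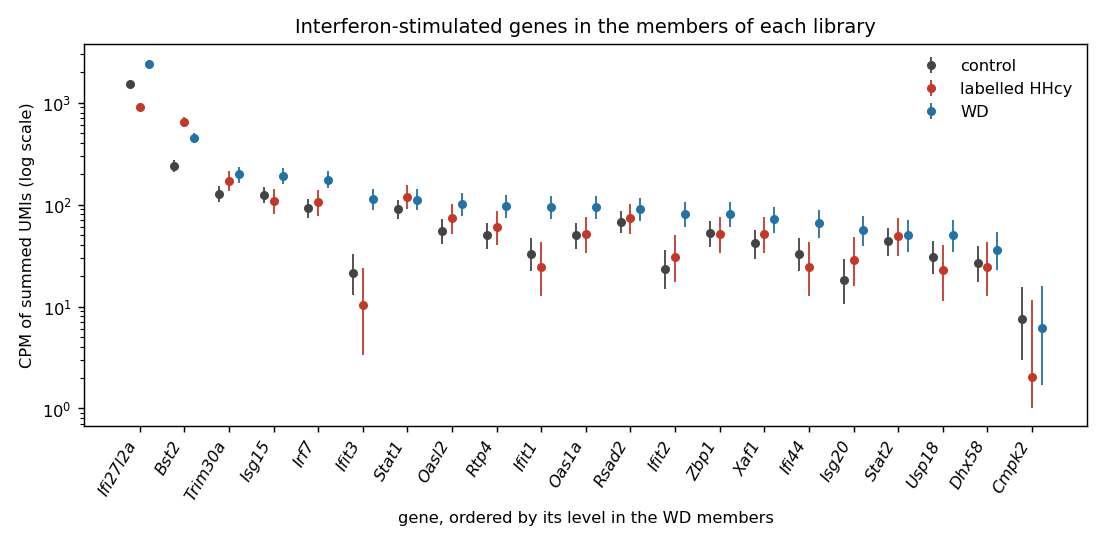
Level of each interferon-stimulated gene in members (CPM, log axis) by library, with 95% counting intervals, ordered by the WD level. The WD point lies above the control point for 20 of the 21 genes, with Ifit3 at 21.3 in control and 114 in WD.

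The starts of Ifit1 and Ifit3 are shown because these genes stayed over 2-fold higher in WD members without the richest members and lie near each other on chromosome 19. Interferon signalling acts through a repeated GAAA element, searched here as GAAANNGAAA on both strands in windows from 250 bases before to 50 after each gene start (RefSeq, GRCm38.p6). The windows matched 15 of the 21 listed genes by symbol. A match lay in the windows of 8 of these 15 genes (53.3%) and of 1079 of 27018 genes in all (3.99%). Both Ifit1 and Ifit3 held 2 matches, given in capitals as TTTCNNTTTC because they lie on the opposite strand, while Ifit2 and Isg20 held none in these windows. A match is a description of the letters and was not tested for binding. The 250 bases before the start of Ifit1 (chr19:34640639-34640888, plus strand) and of Ifit3 (chr19:34583279-34583528, plus strand) read as follows.
Ifit1: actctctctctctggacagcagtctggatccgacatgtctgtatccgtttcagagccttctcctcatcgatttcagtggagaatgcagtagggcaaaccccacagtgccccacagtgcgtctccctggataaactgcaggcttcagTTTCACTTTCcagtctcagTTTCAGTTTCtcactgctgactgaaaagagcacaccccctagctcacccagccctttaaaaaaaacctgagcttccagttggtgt
Ifit3: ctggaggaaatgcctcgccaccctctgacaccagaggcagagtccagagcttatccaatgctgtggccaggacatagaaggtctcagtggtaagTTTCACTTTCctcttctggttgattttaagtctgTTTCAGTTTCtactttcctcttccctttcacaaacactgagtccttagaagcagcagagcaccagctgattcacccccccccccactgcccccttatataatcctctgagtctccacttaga

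Other lists differed between libraries by a few named genes each. Of 15 measured C-type lectins outside the rule, 5 were at least 2-fold lower in WD members (Cd209c, Cd209d, Cd209e, Clec4n and Clec4e), 7 had an interval below 0 and 3 above 0, against 2.81% of all genes at least 2-fold lower and 7.0044% with an interval below 0. The median was -0.19 with all members and -0.48 without the 8, and it turned to 0.05 with up to 1 C1qa UMI allowed and to 0.27 without that exclusion. Cd209d, a paralogue of Cd209a, was at 97.0, 74.0 and 26.4 CPM (-1.88, -2.72 to -1.12), but 1 control member held 62.6% of its UMIs and without the richest member of each library the ratio was -0.86 (-1.90 to 0.10). Cd209c was at 17.1, 14.4 and 1.56 CPM, and Cd209e at 18.1 and 4.11 with no UMI in WD. The Cd209 genes are near-identical copies in one cluster, so reads could be divided among them and these levels are uncertain; Cd209a itself was at 889, 810 and 975 CPM. Of 14 measured chemokines, 4 were at least 2-fold lower in members labelled HHcy (Ccl2, Ccl17, Cxcl1 and Cxcl10) and none higher, with a median of -0.69, against 3.24% of 8232 genes higher and 2.05% lower. In WD, Ccl12 and Ccl22 were higher and Ccl2, Cxcl1 and Cxcl2 lower, with a median of -0.13, which turned to 0.41 with up to 1 C1qa UMI allowed. Cxcl2, a neutrophil attractant, was at 1342, 1997 and 456 CPM, and its WD ratio was -1.56 (-1.75 to -1.37) and -1.40 (-1.63 to -1.18) without the richest member of each library. Cxcl1 rested on 1 control member with 78.5% of the UMIs, and its WD ratio went from -2.31 to -0.48 (-2.03 to 0.93) without the richest members. Without the 8 members that stood apart Cxcl2 was at 1342, 1161 and 403 CPM, so the higher value in the HHcy-labelled library came from the members that stood apart. Il1rn, the interleukin-1 receptor antagonist, was at 149, 101 and 26.4 CPM, a WD ratio of -2.50 (-3.32 to -1.77) and of -1.90 (-2.84 to -1.06) without the richest member of each library.

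Some genes of lipid handling were lower in WD members, but their list did not keep a direction. Of 18 measured genes of lipid handling, 6 were at least 2-fold lower than in control (Cd36, Msr1, Lpl, Apoe, Gpnmb and Spp1) and 1 higher (Abca1), against 2.81% of all genes lower and 2.3% higher at the same minimum of 10 UMIs. The list median was -0.33, and it turned to 0.57 without the C1qa exclusion, to 0.15 with up to 1 C1qa UMI allowed, to 0.25 with 1 Cd209a UMI sufficient, to 0.29 once Ccr7 was allowed, and to 0.11 both with members thinned to 2000 UMIs and without members that held markers of another lineage. Spp1, osteopontin, was at 292, 403 and 28.0 CPM in members and 1188, 161 and 623 in macrophages, and its WD ratio was -3.38 (-4.16 to -2.70). That ratio came from single barcodes: 1 control member held 87.2% of the Spp1 UMIs and 1 HHcy-labelled member 95.4%, and without the richest member of each library the levels were 38.6, 19.53 and 22.1 CPM, a WD ratio of -0.80 (-1.81 to 0.13). Cd36, a scavenger receptor for oxidised lipoproteins, was at 24.5, 14.4 and 3.11 CPM, and Lpl, lipoprotein lipase, at 26.7, 59.6 and 4.67. B cells held Cd36 at 32.5, 26.8 and 30.9 CPM, above its level in the members of each library. Cd36 and Lpl both lay far below macrophages, which held Cd36 at 247, 263 and 169 CPM and Lpl at 297, 206 and 302. Abca1, the cholesterol exporter, was at 18.1, 32.9 and 48.2 CPM (1.41, 0.51 to 2.36). Of 14 genes of cholesterol synthesis and uptake, 12 lay below control in WD, with a median of -0.69, 2 were at least 2-fold lower and 3 had an interval below 0, whereas 47.7% of all genes lay above control. The list was also lower in WD in other cells: its median was -1.01 in Xcr1+ dendritic cells (0 of 13 genes above control), -1.13 in mature dendritic cells (0 of 10), -0.47 in B cells, -0.63 in T cells, -0.87 in neutrophils, where that of all genes was -0.20, -0.27 in Ly6c2 monocytes and -0.06 in macrophages. Levels below control were not limited to WD. In the HHcy-labelled library the median of the list was -0.29 in members, with 5 of 14 genes above control. There it was -0.61 in B cells, -0.41 in Xcr1+ dendritic cells, -0.34 in neutrophils, -0.27 in T cells and -0.04 in macrophages. It lay above control in Ly6c2 monocytes (0.14) and mature dendritic cells (0.21). Msmo1, a sterol oxidase, was at 20.3, 6.17 and 3.11 CPM (-2.70, -5.85 to -0.65).

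Core genes of the set mostly differed less than 2-fold. Of 7 measured core genes of conventional dendritic cells, none was 2-fold different in either comparison, with medians of 0.14 and -0.28. In WD 2 of the 7 had an interval below 0 and 0 above, against 7.0044% and 6.54% of all genes. In members labelled HHcy 1 lay above 0 and 1 below. Of 15 Cd209a dendritic cell markers, 1 was 2-fold lower in members labelled HHcy (Ffar2, -1.35 with all members and -0.96 without the 8) and none in WD. In members labelled HHcy 3 of the 15 had an interval above 0 and 4 below, against 6.98% and 4.82% of all genes. Without the 8 these were 4 and 1, and in WD they were 2 and 1 with all members. The MHC class II list had a median of -0.21 in members labelled HHcy with 8 of 13 intervals below 0 (4.82% of all genes had one), and 0.03 with no interval below 0 once the 8 members were left out. The MHC class I list had medians of 0.24 and 0.06. The list of homocysteine and one-carbon metabolism, measured at 8 genes, had no interval apart from 0 in either comparison, at medians of -0.13 and 0.09; Cbs and Cth, which clear homocysteine by transsulfuration, had no UMI in the members of any library. Neither glycolysis nor the unfolded protein response had a gene 2-fold lower, and Herpud1 was 1 gene higher with all members labelled HHcy. Members with at least 3 UMIs of mitosis genes numbered 15 of 69, 11 of 35 and 9 of 42, or 21.7%, 31.4% and 21.4%, at higher depth than the rest in control and WD. The cell cycle list summed to 1182, 936 and 1222 CPM in members. Its median was -0.40 in the HHcy-labelled library, with 3 of 19 genes above control and 4 intervals below 0, and 0.29 in WD, with 15 of 20 above control. Both turned: the first to 0.56 without the C1qa exclusion and the second to -0.81 without members that held markers of another lineage.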

How the data were processed

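Single-cell RNA-seq (Chromium 3' v3) was made from sorted CD45+ aortic cells, 1 library per group. The authors deposited whole-number UMI count matrices for 32285 genes; Cell Ranger 4.0.0 is named per the file headers, whereas Cell Ranger 2.2.0 and mm10 are named per the submitters' processing notes, and the versions were not reconciled. Counts were read as deposited; no doublet caller was run, so pairs of cells can be among the members. Kept barcodes had at least 200 genes and at most 10% mitochondrial UMIs. UMIs were summed over members of a library and scaled to CPM.

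Log2 ratios carry exact conditional binomial intervals and shares exact Clopper-Pearson intervals (95%), which cover counting error only. A gene was counted as different at a log2 ratio of at least 1 with an interval excluding 0. It also needed at least 50 CPM on the higher side. Comparisons between libraries further required detection in 10% of the members on the higher side. A sum of 0 entered a ratio at 3 UMIs. Lists use genes with at least 10 UMIs over both sides. Named genes were the 20 highest and 10 lowest against macrophages and the 10 highest and 10 lowest against control, leaving out genes with over 25% of their UMIs in 1 member; some results are not reported here. Of 425 listed genes, 419 were in the files. The members, the lists and the rules were chosen with earlier results of these data known. On simulated counts, 97.5% and 98.5% of 200 genes changed 4-fold were recovered for the HHcy-labelled and WD comparisons, over 3043 and 3038 genes. Among the unchanged genes, 19 and 3 were called. The simulated sums held counting error only and no spread between members, and changes nearer the 2-fold limit were not simulated. Recovery in the real counts, where 1 member can hold much of a gene, was therefore not measured. Analyses used Python 3.11.15, NumPy 2.4.6, SciPy 1.17.1 and pandas 2.3.3. Alternatives covered the denominator, scaling, means over cells, filters, thinning to 2000 UMIs and each limit of the rule.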

Additional observations from a re-analysis of the deposited data

How the results depend on the processing

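The lower share of members in the HHcy-labelled library kept its direction under every alternative run. The WD share of members also lay below control in each, but its interval included 0 without the C1qa exclusion. With B cells left out of the denominator the log2 share of the HHcy-labelled library was -0.68. Without the C1qa exclusion the WD share was -0.072 (-0.42 to 0.28). Candidates before any exclusion stood at 0.07 (-0.16 to 0.30) in WD, so the lower WD share did not hold without the exclusions. Counts of differing genes depended more on the settings, and the following are given in the order higher and lower in members. With a mean over cells in place of summed UMIs they were 117 and 85 for the HHcy-labelled library and 63 and 97 for WD. With a minimum of 20 CPM they were 152 and 428 against macrophages, 208 and 130 for the HHcy-labelled library and 125 and 166 for WD. With no filter beyond 10 UMIs they were 193 and 540 against macrophages, 267 and 169 for the HHcy-labelled library and 193 and 236 for WD. With each cell thinned to 2000 UMIs, 167 genes were lower than in macrophages and 77 higher in WD. With 1 C1qa UMI allowed, 42 genes were higher in the HHcy-labelled library and 26 lower in WD. Without members that held markers of another lineage, 86 were lower in the HHcy-labelled library, and 73 were higher and 109 lower in WD. Removing members lowers the UMI totals behind each gene; otherwise the cause of these shifts was not tested.

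The other alternatives, on the 8 members, the richest members and the removal of the C1qa or Ccr7 exclusion, were chosen after seeing the data. Thinning, the limit of 1 C1qa UMI and leaving out members with markers of other lineages, also named below, were planned. Without the 8 members that stood apart, 42 genes were higher in the HHcy-labelled library. Without the C1qa exclusion the counts were 61 and 104 against macrophages, 38 and 20 for the HHcy-labelled library and 68 and 10 for WD. Without the Ccr7 exclusion, 35 genes were lower in WD. The direction of 5 named genes turned: Gfra2 in the HHcy-labelled library when thinned (0.26), Clec4n in WD with 1 C1qa UMI allowed (0.32) and without that exclusion (0.18), Dut in WD without members of mixed markers (-0.022), Ly6c2 in the HHcy-labelled library without the 8 members (-0.74), and Il7r in WD without the Ccr7 exclusion (0.0019). No paired analysis was possible because each group has 1 library, and for the same reason no library could be left out. Leaving out the member of each library richest in interferon-stimulated UMIs kept the shares and the counts of differing genes over all genes within 1.5 times of their values, while the interferon-stimulated genes at least 2-fold higher in WD went from 4 to 2. Leaving out the member richest in a single gene was also chosen after seeing the data. With members thinned to 2000 UMIs, 2 of the 10 named genes higher and 4 of the 10 lower in WD, and 4 and 1 of those in the HHcy-labelled library, still passed both limits. Depth limits single genes most: at 35 to 69 members per library, a gene near 20 CPM rests on few UMIs.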
